A study of Homo sapiens with 9 samples.

Results

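Integrins and the proteins that tie them to actin were followed in MDA-MB-231 cells, which come from a hormone receptor-negative human breast cancer and are mesenchymal in phenotype, on 9 Affymetrix 3′ arrays. A list of 40 genes was used, and among the probe sets annotated to 1 gene alone, the one whose mean over the 9 arrays was highest stood for that gene. That gave values for 37 of the 40 genes, of 11963 genes with such a probe set on the array; ITGB6 and LIMS1 are annotated only together with other genes, and for BCAR1 the annotation used lists no probe set. The 37 comprise 18 integrin chains (11 alpha and 7 beta), 17 cytoplasmic adhesion proteins and 2 caveolins.

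All cells carried a stably integrated lentiviral hairpin vector. The scramble line carried a control hairpin, and the shco2 and shco4 lines carried hairpin #2 or #4 against Coco, a secreted antagonist of BMP, Nodal and activin ligands encoded by DAND5. Each line was represented by 3 arrays that the labels call biological replicates, from cells grown in DMEM with 10% fetal bovine serum; whether these were separate cultures is not said, so p-values measure the spread between these arrays, which may be technical. The labels describe 1 stable line per hairpin and do not say whether it is a clone or a pool. Differences between lines therefore cannot be told apart from differences between hairpins, and knockdown was not checked because DAND5 has no probe set here. Differences in RNA per cell and in the share of cells that express a gene also cannot be told apart in bulk RNA.

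Integrins are surface receptors made of 1 alpha and 1 beta chain, and the pair decides whether a cell binds laminin, collagen, fibronectin or vitronectin. Inside the cell, talin and kindlin bind the beta tail and switch the receptor on, while vinculin, alpha-actinin and the complex of ILK, parvin and PINCH join it to actin filaments. Focal adhesion kinase and Src signal from these sites, and adaptors such as paxillin recruit further enzymes that steer migration.

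Median intensity lay between 122 and 129 on the 9 arrays, and the 3′ to 5′ ratio of GAPDH between 0.868 and 0.958. The 3′ to 5′ ratio of ACTB, a sign of RNA quality, was 1.07 to 1.10 in scramble, 1.08 to 1.11 in shco2 and 1.12 to 1.14 in shco4, so that every shco4 array was above every other array; its part in the results was not tested. All 6 genes listed as present in MDA-MB-231 (VIM, CD44, AXL, CAV1, MSN and S100A4) were above an intensity of 64, while of 5 genes listed as absent or low there, PGR was at or under 16 on all arrays, ESR1 lay at 23.2 to 54.1, and ERBB2 (515 to 803), EPCAM (219.9 to 609.9) and CDH1 (28 to 243) exceeded 64 on some or all. Those 5 summed to 1367 to 1441 in scramble, 1080.0 to 1268 in shco2 and 1065 to 1152 in shco4. The summed intensity of the 6 genes listed as present was 51121 to 53203 in scramble, 31903 to 32372 in shco2 and 46908 to 48861 in shco4, with CAV1 a member of both lists. A fibroblast list of 6 genes summed to 142 to 184 in scramble, 110 to 143 in shco2 and 278 to 396 in shco4. FAP, a defining gene of it, was at or under 16 on all arrays, while LUM and PDGFRB exceeded 64 on some. LUM had geometric mean intensities of 20.5 in scramble, 16 in shco2 and 208 in shco4. It was called higher with shco4 (adjusted p = 0.0012 by limma). A luminal list of 6 genes summed to 5535 to 7108, 3159 to 3227 and 5380 to 5839. FOXA1 was at or under 16 on all arrays, while KRT19 lay at 2107 to 5848 and GATA3 at 437 to 683. Leukocyte (4 of 6 genes measured), endothelial and platelet lists summed to at most 348 on any array, with VWF and GP9 at or under 16. In these lists CD14, PECAM1, ITGA2B and PF4 exceeded 64 on some arrays. CD14 had geometric mean intensities of 56.1 in scramble, 54.7 in shco2 and 150 in shco4. It was called higher with shco4 (adjusted p = 0.049 by limma). The part of these lists in the results was not tested.

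In the shco2 line 16 of the 37 genes were lower than in scramble and 1 was higher, while in the shco4 line 9 were lower and 3 higher (limma, Benjamini-Hochberg adjusted p under 0.05 over 22215 probe sets, two-sided). These counts come from the fit without the replicate number as a block. The shco4 counts with that block are given with the alpha-actinins below. Over all genes at their brightest probe set, 11% were lower and 13.3% higher with shco2, and 11.5% were lower and 10.7% higher with shco4. Over all probe sets the shares were 9.95% and 10.7% with shco2, and 9.75% and 9.05% with shco4. The median log2 difference of the 37 genes was -0.45 with shco2 and -0.14 with shco4, against 0 over all genes in both. The members' own shares were 43.2% lower and 2.70% higher with shco2, and 24.3% lower and 8.11% higher with shco4, so that the share lower was above that of all genes with both hairpins. The share higher was below it with shco2, and with shco4 it was near that of all genes. These shares were not matched for signal, and a gene at or under 16 on all arrays cannot be called. Compared directly, 17 members were higher and 3 lower in shco4 than in shco2, with a median of 0.29 (45.9% and 8.11% of them), where 16% of all genes were higher and 19.3% lower (14.9% and 16.1% of probe sets). Both hairpin comparisons use the same 3 scramble arrays, so their values are given side by side and what they have in common is only listed.

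Called lower in both comparisons were the integrin chains ITGA3, ITGA5 and ITGB5, the ILK-complex protein RSU1, the LIM adaptor TGFB1I1 and the Rac exchange factor DOCK5. Another 9 were lower with shco2 and not called with shco4: ITGA2, ITGA6, ITGAV, ITGB4, VCL, ACTN4, PTK2, CAV1 and CAV2. All 9 were also called higher in shco4 than in shco2, which is the test of the difference itself. FERMT2, SRC and PXN were lower with shco4 and not called with shco2. FERMT2 and SRC were lower in shco4 than in shco2 as well, while PXN was not called there. ITGB2 and DOCK1 were higher with shco4 and higher than in shco2, and ILK was lower with shco2 and higher with shco4.

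**Figure D1:**
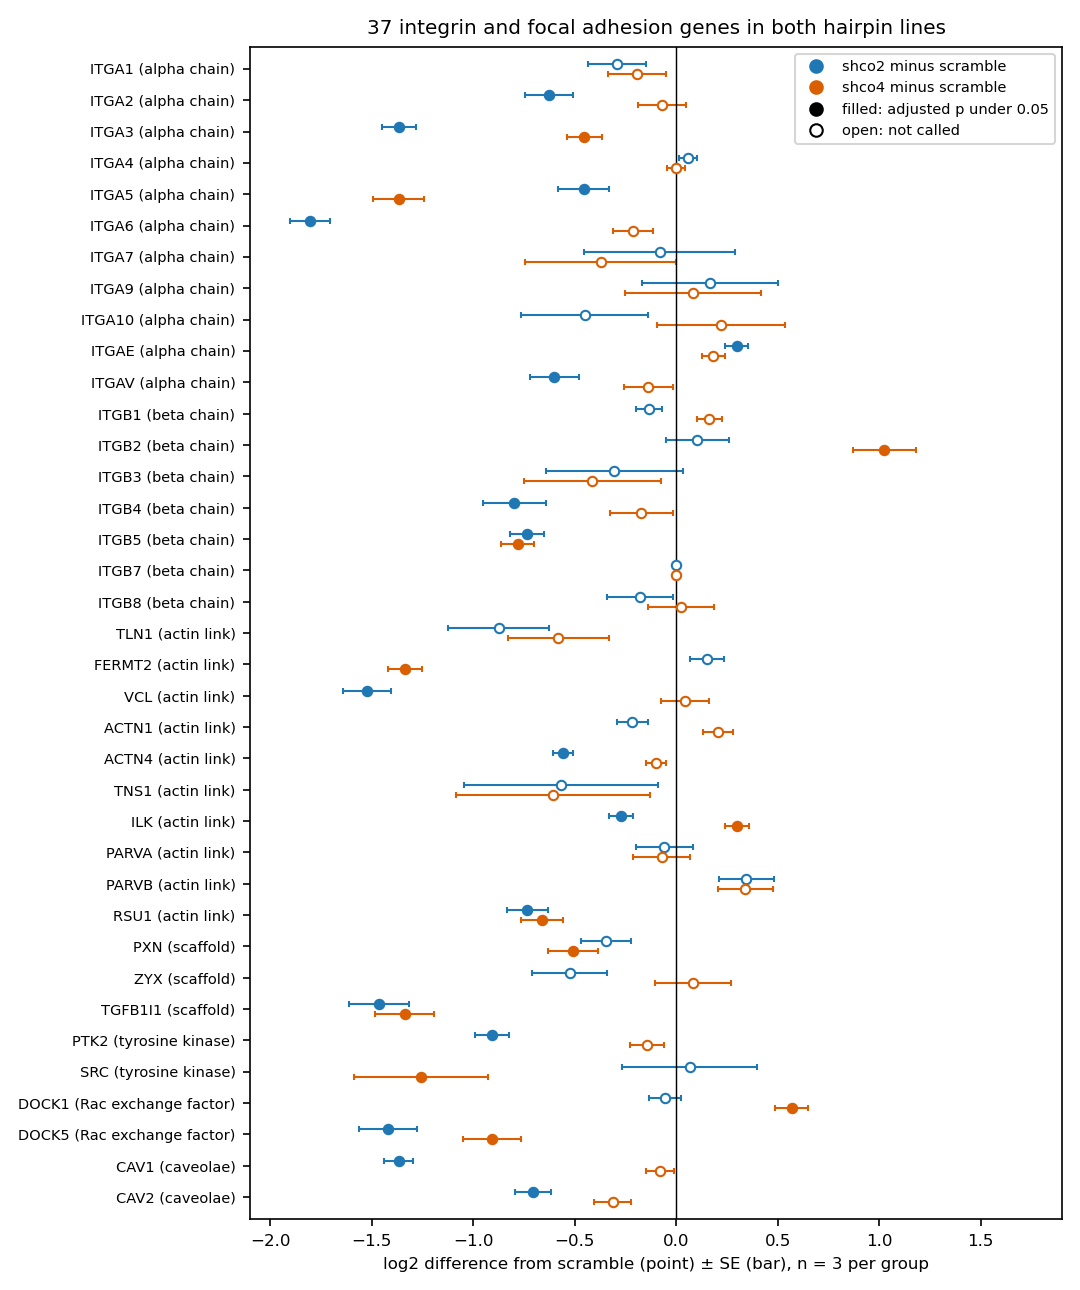
Log2 difference from scramble (x axis) for the 37 genes, with SE bars, n = 3 arrays per line; blue is shco2, orange is shco4, and filled points have an adjusted p under 0.05. The shco2 points for ITGA6, VCL, CAV1 and PTK2 lie far left of the shco4 points, and the shco4 points for FERMT2, SRC and ITGA5 lie left of the shco2 points.

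Among laminin receptors, ITGA6 had intensities of 2876, 2592 and 2399 on the scramble arrays, 834, 729 and 688 on the shco2 arrays and 2094, 2346 and 2339.6 on the shco4 arrays. Its product pairs with beta1 or, in hemidesmosomes, with beta4. Every shco2 array was below every other array, and the shco4 arrays lay just under the scramble arrays. ITGA6 was 3.5-fold lower with shco2 (log2 difference -1.81 ± 0.098 SE, n = 3 per line, adjusted p = 0.000212 by limma). With shco4 the difference was -0.21 ± 0.098 (adjusted p = 0.202, 95% interval -0.45 to 0.02), and shco4 stood 3.02-fold above shco2 (adjusted p = 0.000122).

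ITGA3, the alpha chain of another laminin receptor, had intensities of 2964, 2838 and 2577 on the scramble arrays, 1107, 1152 and 989.8 on the shco2 arrays and 2211, 1981 and 1930.3 on the shco4 arrays. The 3 lines did not overlap, with scramble highest and shco2 lowest. The log2 difference was -1.37 ± 0.084 with shco2 (adjusted p = 0.000306) and -0.45 ± 0.084 with shco4 (adjusted p = 0.0131), and shco4 was 1.89-fold above shco2 (adjusted p = 0.000467). ITGB4, the long-tailed beta chain that anchors keratin filaments, had intensities of 1788, 1264 and 1729.6 on the scramble arrays, 829.7, 1006 and 890.1 on the shco2 arrays and 1502, 1250.1 and 1456 on the shco4 arrays. The shco2 arrays were again the lowest and those of shco4 overlapped scramble. ITGB4 fell with shco2 (-0.80 ± 0.15, adjusted p = 0.0133) but passed no threshold with shco4 (-0.17 ± 0.15, adjusted p = 0.538). Its shco4 to shco2 difference of 0.63 ± 0.15 (adjusted p = 0.022) missed the threshold without shco2 replicate 1 or 3, or shco4 replicate 1 or 3, with adjusted p of 0.0659 to 0.0726.

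ITGA2, the collagen-binding alpha chain, lay at 383 to 464 in scramble, 273 to 280 in shco2 and 345 to 465 in shco4. It was 1.54-fold lower with shco2 (log2 difference -0.63 ± 0.12, adjusted p = 0.012), while its shco4 arrays overlapped the scramble arrays (-0.07 ± 0.12, adjusted p = 0.81). In shco4 it stood 1.47-fold above shco2 (adjusted p = 0.0123).

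ITGA5, which with beta1 forms the main fibronectin receptor, showed the reverse order of the hairpins. It had intensities of 857, 783 and 714 on the scramble arrays, 633, 494 and 593 on the shco2 arrays and 295, 277 and 343 on the shco4 arrays. The lines did not overlap, and shco4 was the lowest. ITGA5 was 2.58-fold lower with shco4 (log2 difference -1.37 ± 0.13, adjusted p = 0.00121) and 1.88-fold lower in shco4 than in shco2 (-0.91 ± 0.13, adjusted p = 0.00216). With shco2 the difference of -0.46 ± 0.13 only just passed (adjusted p = 0.0468), and leaving out any array other than shco4 replicate 3 ended the call, with adjusted p from 0.0555 without shco2 replicate 1 to 0.132 without scramble replicate 1.

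ITGAV, the alpha chain of the vitronectin receptors and a partner in activating latent TGF-beta, had intensities of 1382, 1363 and 1652 on the scramble arrays, 825, 1019 and 1062 on the shco2 arrays and 1419, 1312 and 1253 on the shco4 arrays. Only the shco2 arrays lay apart, all below the other lines. The log2 difference was -0.60 ± 0.12 with shco2 (adjusted p = 0.0152) and -0.14 ± 0.12 with shco4 (adjusted p = 0.521). The difference of 0.46 ± 0.12 between shco4 and shco2 (adjusted p = 0.0272) missed the threshold without shco2 replicate 1 or 2, or shco4 replicate 1 or 2, with adjusted p of 0.0515 to 0.0848.

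ITGB5, a vitronectin-binding beta chain, had intensities of 1869, 1648 and 1714 on the scramble arrays, 1008, 1051 and 1078 on the shco2 arrays and 934, 975 and 1139 on the shco4 arrays. Both hairpin lines lay below scramble and overlapped each other. The log2 difference was -0.74 ± 0.083 with shco2 (adjusted p = 0.00204) and -0.78 ± 0.083 with shco4 (adjusted p = 0.00197), and between the hairpins it was -0.05 with a 95% interval of -0.25 to 0.15. Another ITGB5 probe set disagreed on shco4, being called at -1.33 with shco2 but not called at -0.26 with shco4, and called 1.08 higher in shco4 than in shco2, and the average over all ITGB5 probe sets was not called with shco4 (adjusted p = 0.096). ITGB3, the other classical vitronectin-receptor beta chain, was dim, with intensities of 52.1, 72.5 and 85.4 on the scramble arrays, 45.3, 84.4 and 44.8 on the shco2 arrays and 37.9, 61.2 and 58.9 on the shco4 arrays. All 3 lines overlapped and ITGB3 was not called in any comparison, with wide intervals of -1.11 to 0.50 for shco2 and -1.22 to 0.39 for shco4.

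ITGB1, the beta chain shared by most of these receptors, was called against scramble with neither hairpin. It had intensities of 8074, 7494 and 8262 on the scramble arrays, 6757, 7737 and 7214 on the shco2 arrays and 8868, 9312 and 8496 on the shco4 arrays. The shco2 arrays overlapped scramble, and the shco4 arrays lay just above both other lines. The log2 difference was -0.14 ± 0.063 with shco2 (adjusted p = 0.207, 95% interval -0.29 to 0.02) and 0.16 ± 0.063 with shco4 (adjusted p = 0.136, 95% interval 0.01 to 0.31). Between the hairpins ITGB1 was 1.23-fold higher in shco4 (adjusted p = 0.0123), a call that quantile normalization ended (adjusted p = 0.47). The other 4 ITGB1 probe sets were dim.

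ITGB2, the beta chain of the leukocyte integrins, rose with shco4, with intensities of 73.8, 74.6 and 58.5 on the scramble arrays, 64.4, 85.6 and 72.5 on the shco2 arrays and 120.1, 145 and 156 on the shco4 arrays. All shco4 arrays were above the others. The difference was 1.03 ± 0.16 against scramble (adjusted p = 0.00644) and 0.92 ± 0.16 against shco2 (adjusted p = 0.00505), while the leukocyte list, which does not hold ITGB2, summed to 108 to 176 in scramble, 121 to 156 in shco2 and 183 to 348 in shco4, and its part in the result was not tested. ITGAE, the alpha chain that binds E-cadherin, was the sole integrin chain higher with shco2, with intensities of 2251, 2289.8 and 2417 on the scramble arrays, 2768, 2894 and 2885 on the shco2 arrays and 2475, 2576 and 2849 on the shco4 arrays. Every hairpin array was above every scramble array. Its log2 difference was 0.30 ± 0.056 with shco2 (adjusted p = 0.0121) and 0.18 ± 0.056 with shco4 (adjusted p = 0.0711), and the second passed once the replicate number was blocked (adjusted p = 0.0269). Without shco4 replicate 3 ITGAE was also called lower in shco4 than in shco2 (0.0252).

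The remaining integrin chains gave little signal. ITGA10 lay between 53.4 and 126 on the 9 arrays and was not called, and ITGA1, ITGA4, ITGA7, ITGA9, ITGB7 and ITGB8 lay between 0.412 and 34.8, under or near the floor of 16 below which all values were set equal. Together with ITGB3, TNS1 and PARVB these are the 9 members with a mean log2 intensity under 6, and none was called in any comparison over all arrays; ITGA1 passed with shco2 without scramble replicate 1 (adjusted p = 0.0473). Of the other 28 members, 25 were called in at least 1 comparison. The matching share of all genes that were not dim was not taken, so this count has no background beside it and is only a description.

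**Figure D2:**
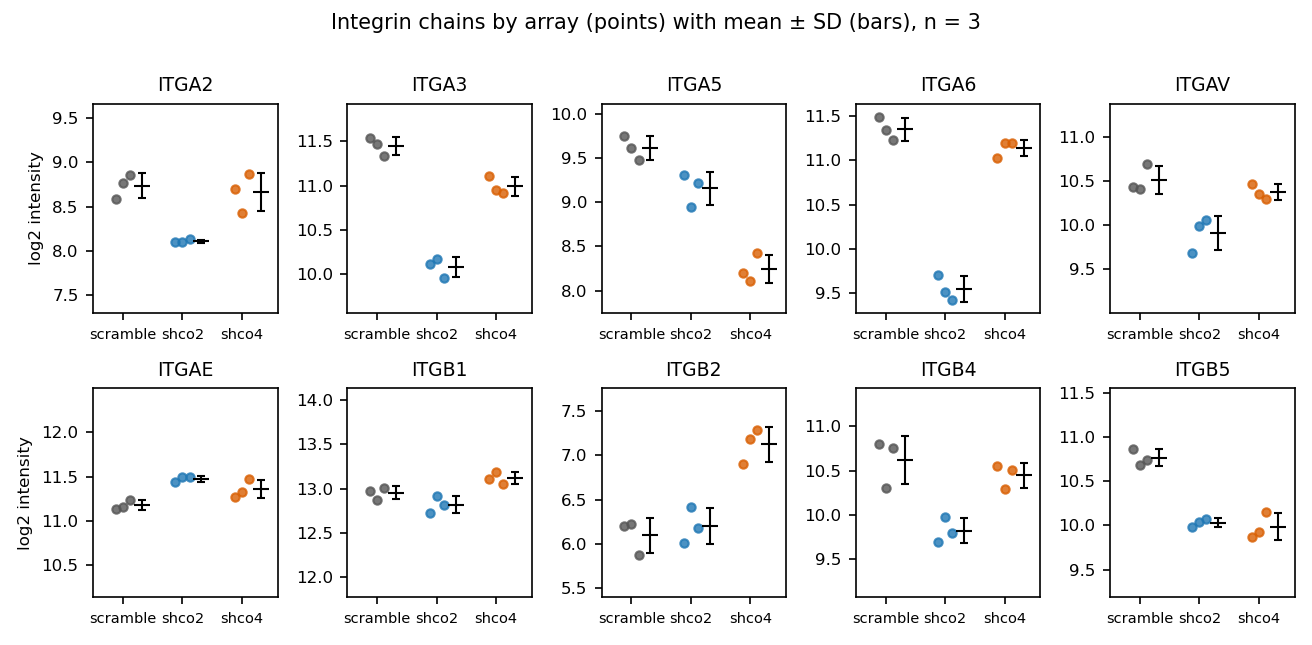
Log2 intensity (y axis) of 10 integrin chains in the 3 lines (x axis), 1 point per array, with the mean ± SD of 3 arrays as a bar; panels have y axes of equal span but different start. ITGA6, ITGA3 and ITGB4 are lowest in shco2, ITGA5 is lowest in shco4, ITGB5 is lower in both hairpin lines, and ITGB1 stays within a narrow range.

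As heterodimers, few pairs were called in both chains against scramble. Both chains had values for 16 of 17 listed pairs, the pair of ITGAV with ITGB6 being unmeasured, and several pairs share a chain. The list holds no pair with ITGB2, the sole integrin chain called higher with shco4, so pairs of that chain were not examined. Many pairs hold a chain that was dim or at the floor: ITGA1, ITGA4, ITGA7, ITGA9, ITGB3, ITGB7 or ITGB8. Such a chain left uncalled may be undetected, so these pairs do not show that it stayed unchanged. With shco2 both chains were lower in 2 pairs, ITGAV with ITGB5 and ITGA6 with ITGB4. The alpha chain alone was called in 8 pairs, lower in 7 and higher in ITGAE with ITGB7, and in 6 pairs neither was. Of the 8, the pairs with ITGB3, ITGB8 and ITGB7 have a dim beta chain. Of the 6, all but ITGA10 with ITGB1 hold a dim chain. With shco4 no listed pair was called in both chains. The alpha chain alone was lower in ITGA3 with ITGB1 and in ITGA5 with ITGB1. The beta chain alone was lower in ITGAV with ITGB5, a call lost with the mean of the ITGB5 probe sets, and 13 pairs had neither. Both hairpins thus left ITGB1 uncalled while at least 1 of its alpha partners fell.

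Between the hairpins both chains were higher in shco4 in 5 pairs: ITGA2, ITGA3, ITGA6 and ITGAV with ITGB1, and ITGA6 with ITGB4. The pair of ITGA5 with ITGB1 moved in opposite directions, at -0.91 and 0.30. In each of these pairs with ITGB1 the beta chain's part was the small ITGB1 difference given above.

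**Figure D3:**
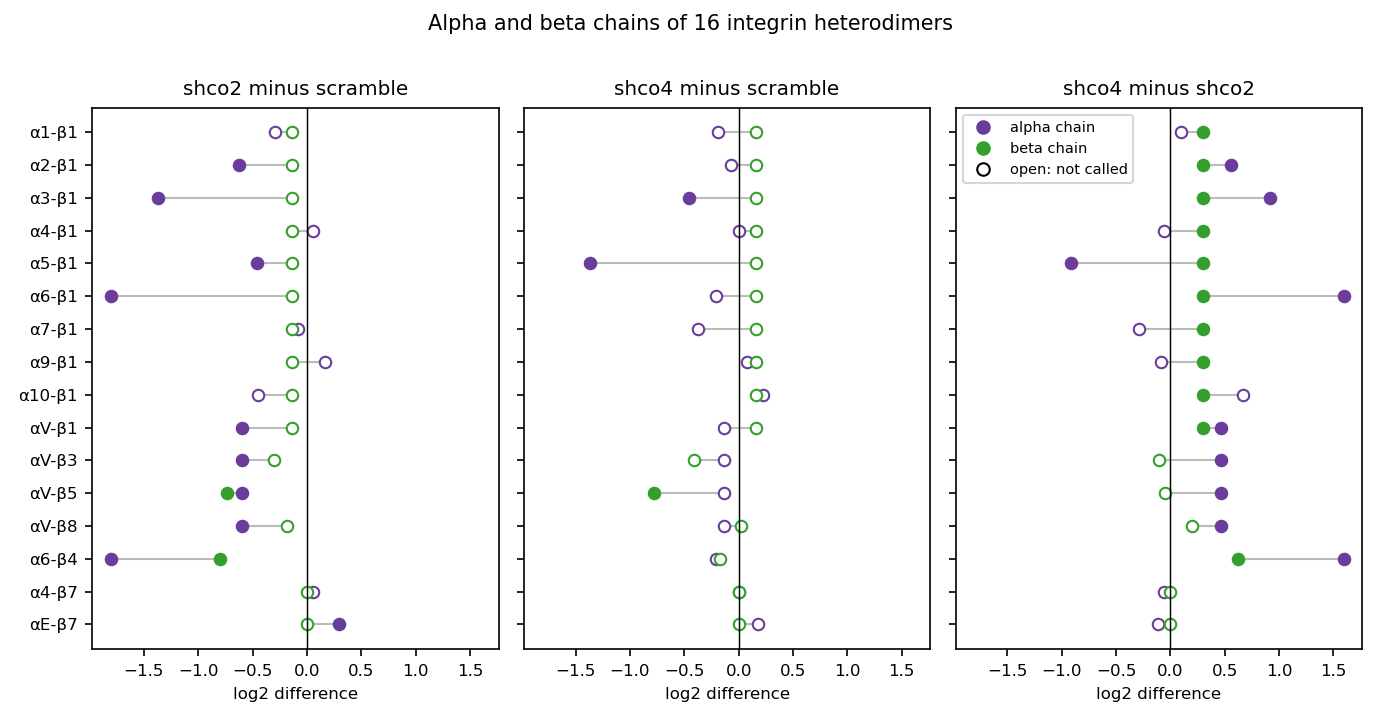
Log2 differences of the alpha (purple) and beta (green) chain of 16 heterodimers, joined by a line, in the 3 comparisons; filled points have an adjusted p under 0.05. With shco2 the ITGA6 points stand 1.81 below scramble while ITGB1 stays near 0, and with shco4 ITGA5 stands 1.37 below it.

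Among the proteins that connect integrins to actin, vinculin fell with shco2 and kindlin-2 with shco4. VCL, encoding vinculin, which reinforces talin's hold on actin under force, had intensities of 5664, 6052 and 6029.7 on the scramble arrays, 1732, 2153 and 2330.2 on the shco2 arrays and 5545, 6204 and 6597 on the shco4 arrays. The shco2 arrays lay far below all others, and the shco4 arrays enclosed the scramble range. VCL was 2.88-fold lower with shco2 (log2 difference -1.52 ± 0.12, adjusted p = 0.000601) and differed by 0.04 ± 0.12 with shco4 (adjusted p = 0.941, 95% interval -0.24 to 0.33), so that shco4 was 2.97-fold above shco2 (adjusted p = 0.000227). A second VCL probe set was called in no comparison, at -0.17 with shco2, 0.91 with shco4 and 1.08 between the hairpins.

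FERMT2, encoding kindlin-2, had intensities of 1726, 1886 and 1704 on the scramble arrays, 2082, 2092 and 1745 on the shco2 arrays and 664, 728 and 713 on the shco4 arrays. Here the shco4 arrays stood alone, all lower, and scramble and shco2 overlapped. FERMT2 was 2.52-fold lower with shco4 (log2 difference -1.34 ± 0.083, adjusted p = 0.00041) and 2.8-fold lower in shco4 than in shco2 (adjusted p = 9.42e-05), while with shco2 the difference was 0.15 ± 0.083 (adjusted p = 0.289). All 3 FERMT2 probe sets were called lower with shco4, at -0.99 to -1.34.

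TLN1, encoding talin-1, had intensities of 879, 1092 and 1371 on the scramble arrays, 602, 523 and 678 on the shco2 arrays and 556, 725 and 977 on the shco4 arrays. Every shco2 array was below every scramble array, and shco4 overlapped both. The shco2 difference of -0.87 ± 0.25 lay at the edge of the threshold (adjusted p = 0.0523) and passed it without shco4 replicate 1 (0.0387) or shco4 replicate 3 (0.0366). The shco4 difference was -0.58 ± 0.25 (adjusted p = 0.172).

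ILK, a pseudokinase scaffold at the beta tail, had intensities of 3702, 3566 and 3189 on the scramble arrays, 3032, 2803 and 2801 on the shco2 arrays and 4216, 4333 and 4281 on the shco4 arrays. The 3 lines did not overlap, with shco2 lowest and shco4 highest. The differences from scramble were -0.27 ± 0.06 with shco2 (adjusted p = 0.0207) and 0.30 ± 0.06 with shco4 (adjusted p = 0.0173), and between the hairpins the difference was 0.57 ± 0.06 (adjusted p = 0.000749). The shco2 call was lost without scramble replicate 1 (0.0559), scramble replicate 2 (0.0689), shco2 replicate 2 (0.0692) or shco2 replicate 3 (0.0708), and the shco4 call without shco4 replicate 2 (0.0529). With log2(value + 16) in place of the floor both calls ended (0.0772 and 0.0618), and the shco2 call also ended with median centring (0.0761) or with only the arrays of the 2 lines compared (0.0662).

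RSU1, which joins the ILK complex through PINCH, lay at 989 to 1169 in scramble, 581 to 732 in shco2 and 662 to 736 in shco4. Both hairpin lines were below scramble and overlapped each other. It fell by 0.73 on the log2 scale with shco2 (adjusted p = 0.00404) and by 0.66 with shco4 (adjusted p = 0.00657), but its other probe set, which was dim, gave log2 differences of -0.02 (shco2) and 0.39 (shco4), neither of them called. PARVA, encoding the actin-binding parvin alpha, was not called at its brightest probe set, with -0.06 and -0.07, but a second probe set was lower with shco2, at -0.93.

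The alpha-actinins cross-link actin filaments. ACTN4 lay at 6594 to 6765 in scramble, 4405 to 4668 in shco2 and 5846 to 6708 in shco4, and was lower with shco2 alone (-0.56 ± 0.05, adjusted p = 0.00096; with shco4 -0.10 ± 0.05, adjusted p = 0.244, or 0.0406 without shco4 replicate 2). ACTN1 was called against scramble with neither hairpin (-0.22 and 0.20), though it was 1.34-fold higher in shco4 than in shco2 (adjusted p = 0.00624). That call was lost with the mean of all ACTN1 probe sets (0.29, adjusted p = 0.094) and with the one of largest interquartile range (0.13, adjusted p = 0.69). Without shco4 replicate 1 ACTN1 and ITGAE passed with shco4 (adjusted p = 0.0465 and 0.0499), which raised the count of higher members from 3 to 5. PARVB, dim at 16.9 to 28.4, passed with shco4 when the replicate number was a block (adjusted p = 0.0441). That block gave 7 lower and 5 higher members with shco4 in place of 9 and 3.

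Of the LIM-domain and paxillin-family scaffolds, TGFB1I1 changed most. It encodes Hic-5, a paxillin relative first known as a TGF-beta-induced gene, and had intensities of 1319.7, 1269 and 1449 on the scramble arrays, 449, 475 and 541 on the shco2 arrays and 427, 587 and 600.1 on the shco4 arrays. Both hairpin lines lay far below scramble and overlapped each other. The difference was -1.47 ± 0.15 with shco2 (adjusted p = 0.00135) and -1.34 ± 0.15 with shco4 (adjusted p = 0.00212), and 0.13 between the hairpins, with a 95% interval of -0.22 to 0.48.

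PXN, encoding paxillin, had intensities of 1332, 1466 and 1498 on the scramble arrays, 1247, 1029 and 1107 on the shco2 arrays and 846, 1066 and 1120.4 on the shco4 arrays. All hairpin arrays were below all scramble arrays. The difference was -0.51 ± 0.12 with shco4 (adjusted p = 0.0329) and -0.35 ± 0.12 with shco2 (adjusted p = 0.104). The shco4 call ended when replicate number was blocked (0.0619) and without any 1 of scramble replicates 1, 2 and 3, shco2 replicate 3 and shco4 replicates 1 and 2, with adjusted p of 0.051 to 0.099, and with shco2 the value passed without shco4 replicate 1 (0.0389). ZYX, encoding zyxin, differed by -0.52 ± 0.19 with shco2 (adjusted p = 0.102) and 0.08 ± 0.19 with shco4 (adjusted p = 0.908). It was higher in shco4 than in shco2 by 0.61 (adjusted p = 0.0489), a call that was kept without shco2 replicate 1 or shco4 replicate 1 and lost without any other array (up to 0.143, without shco2 replicate 3).

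The kinases split by hairpin. PTK2, encoding focal adhesion kinase, had intensities of 1866, 2057 and 1803 on the scramble arrays, 958, 1111 and 987 on the shco2 arrays and 1771, 1586 and 1823 on the shco4 arrays. The shco2 arrays were all below the others, and shco4 overlapped scramble. PTK2 was 1.87-fold lower with shco2 (log2 difference -0.91 ± 0.083, adjusted p = 0.00103), -0.15 ± 0.083 with shco4 (adjusted p = 0.313), and 1.7-fold higher in shco4 than in shco2 (adjusted p = 0.000885).

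SRC had intensities of 229, 225 and 164 on the scramble arrays, 177, 227 and 242 on the shco2 arrays and 129, 89.6 and 53.4 on the shco4 arrays. The shco4 arrays were the lowest and spread widely, and scramble and shco2 overlapped. SRC was -1.26 ± 0.33 with shco4 (adjusted p = 0.0436), 0.07 ± 0.33 with shco2 (adjusted p = 1) and -1.32 ± 0.33 between the hairpins (adjusted p = 0.0236). These calls are weak: against scramble the call ended when replicate number was blocked (0.0632) and without any array other than shco4 replicate 1, up to 0.127 without scramble replicate 2, and between the hairpins it ended without shco2 replicate 2 (0.0721), shco2 replicate 3 (0.0768) or shco4 replicate 2 (0.0588). The other 2 SRC probe sets were dim, and the mean of all 3 differed by -0.35 with shco4 (adjusted p = 0.185) and by -0.49 between the hairpins (0.0575).

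The 2 DOCK proteins, exchange factors that activate Rac downstream of adhesion, moved apart with shco4. DOCK5 had intensities of 239.7, 223 and 194 on the scramble arrays, 67.3, 85.3 and 94.3 on the shco2 arrays and 114, 109 and 126 on the shco4 arrays. It was below scramble on every hairpin array, lowest with shco2. The difference was -1.42 ± 0.14 with shco2 (adjusted p = 0.00135) and -0.91 ± 0.14 with shco4 (adjusted p = 0.00691). The hairpin difference of 0.51 ± 0.14 (adjusted p = 0.0336) was lost without scramble replicate 2, shco2 replicate 1 or 2, or any shco4 replicate, at 0.0577 to 0.0995.

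DOCK1 had intensities of 345, 434 and 378 on the scramble arrays, 371, 374 and 363 on the shco2 arrays and 594, 565 and 549 on the shco4 arrays. All shco4 arrays were above all others, and shco2 lay within the scramble range. DOCK1 was 1.48-fold higher with shco4 (log2 difference 0.57 ± 0.081, adjusted p = 0.00507) and -0.06 ± 0.081 with shco2 (adjusted p = 0.773).

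**Figure D4:**
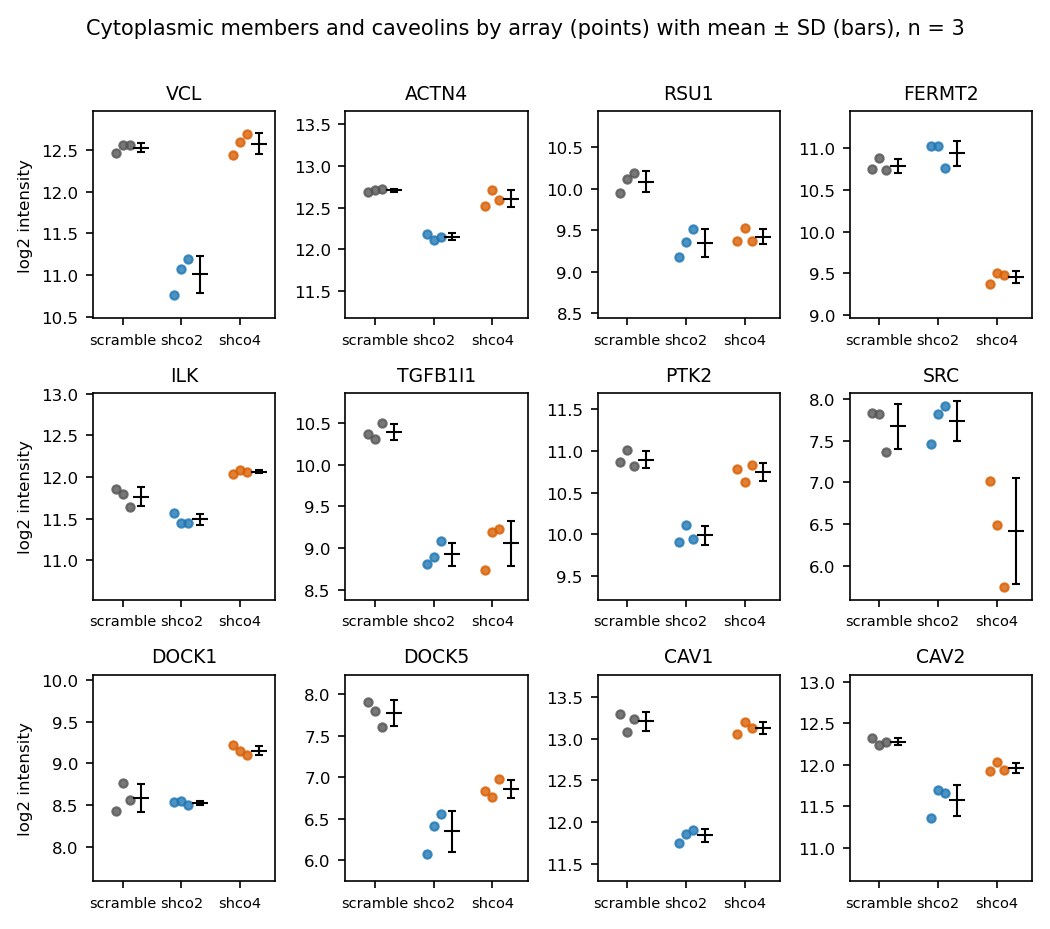
Log2 intensity (y axis) of 10 cytoplasmic members and the 2 caveolins in the 3 lines (x axis), 1 point per array, with the mean ± SD of 3 arrays as a bar; panels have y axes of equal span but different start. VCL, PTK2 and CAV1 are lowest in shco2, FERMT2 and SRC are lowest in shco4, TGFB1I1 and DOCK5 are below scramble in both hairpin lines, and DOCK1 is highest in shco4.

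The caveolins, coat proteins of the membrane pits that form beside adhesions and take up integrins, fell with shco2. CAV1 had intensities of 10093, 8685 and 9670.0 on the scramble arrays, 3452, 3709.8 and 3848 on the shco2 arrays and 8495, 9394 and 8970.1 on the shco4 arrays. The shco2 arrays were far below all others, and shco4 overlapped scramble. CAV1 was 2.58-fold lower with shco2 (log2 difference -1.37 ± 0.07, adjusted p = 0.000192), -0.08 ± 0.07 with shco4 (adjusted p = 0.521), and 2.44-fold higher in shco4 than in shco2 (adjusted p = 8.87e-05). CAV2, its partner, lay at 4834 to 5106 in scramble, 2631 to 3322 in shco2 and 3892 to 4186 in shco4, and differed by -0.71 ± 0.09 with shco2 (adjusted p = 0.00297) and -0.31 ± 0.09 with shco4 (adjusted p = 0.0557). The CAV2 shco4 value passed without shco2 replicate 1 (0.00572), under quantile normalization (0.0384), without dim probe sets (0.0462), with the mean of its probe sets (0.0307) and with only the arrays of the 2 lines compared (0.017), and its hairpin difference of 0.39 (adjusted p = 0.0166) was lost without shco4 replicate 2 (0.0561) or with only those 2 lines (0.0588).

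Upstream sequence is shown for 4 members picked by name as examples of the 3 patterns. These are CAV1, lower with shco2, FERMT2, lower with shco4, and RSU1 and TGFB1I1, lower with both. Each is the 250 bases before an annotated start (RefSeq, GRCh38.p14), written 5′ to 3′ on the gene's strand, with matches to GGGCGG (the core of an Sp1 site) and to the CArG box (the SRF site) on either strand in capitals; overlapping matches run together.
CAV1, chr7:116524759-116525008, plus strand: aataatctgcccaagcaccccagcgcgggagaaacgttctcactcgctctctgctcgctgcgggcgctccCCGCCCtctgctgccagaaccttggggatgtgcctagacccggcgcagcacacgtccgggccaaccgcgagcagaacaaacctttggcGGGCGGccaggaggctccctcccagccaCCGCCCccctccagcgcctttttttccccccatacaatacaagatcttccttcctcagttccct
FERMT2, chr14:52951051-52951300, minus strand: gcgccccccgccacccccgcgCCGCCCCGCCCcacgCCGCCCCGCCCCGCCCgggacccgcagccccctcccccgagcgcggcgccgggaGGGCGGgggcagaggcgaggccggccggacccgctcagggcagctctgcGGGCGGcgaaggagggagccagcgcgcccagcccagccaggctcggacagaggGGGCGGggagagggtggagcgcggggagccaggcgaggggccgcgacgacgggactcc
RSU1, chr10:16817425-16817674, minus strand: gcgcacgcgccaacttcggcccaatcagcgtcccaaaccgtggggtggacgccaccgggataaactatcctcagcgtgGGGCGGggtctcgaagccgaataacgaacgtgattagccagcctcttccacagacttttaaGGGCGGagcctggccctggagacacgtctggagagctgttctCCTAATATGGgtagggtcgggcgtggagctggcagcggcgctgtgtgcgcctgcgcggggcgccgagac
TGFB1I1, chr16:31472955-31473204, plus strand: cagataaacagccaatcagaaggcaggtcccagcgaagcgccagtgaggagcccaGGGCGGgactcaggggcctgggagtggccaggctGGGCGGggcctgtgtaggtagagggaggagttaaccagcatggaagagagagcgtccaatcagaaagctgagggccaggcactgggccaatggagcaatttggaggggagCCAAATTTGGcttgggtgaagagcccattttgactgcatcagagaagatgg
CAV1 and TGFB1I1 have 3 starts in the table and 1 is shown for each. It is the first start whose window holds a CArG box, or the first listed where none does. CAV1 holds 3 GGGCGG matches, FERMT2 8, and RSU1 and TGFB1I1 2 each, and the last 2 also hold a CArG box. In windows from 250 bases before to 50 after the start, available for 27 of the 37 genes, GGGCGG was found in 21 of 27 member genes and in 48.3% of all genes (45.0% of 35116 windows). The CArG box was found in 3 of 27, ACTN1 being the third, and in 1.60% of all genes (1.29% of windows). ITGA5 and ITGB5, also lower with both hairpins, had windows without a CArG box, so the sequences shown do not stand for that pattern in this respect. TGANTCA (AP-1) was found in 2 of 27 and in 9.37% of genes (7.71% of windows), and GGAATG (TEAD) in 8 of 27 and in 16.7% of genes (14.0% of windows). A gene was counted if any of its windows matched. The 27 member genes have 47 windows and all 27305 genes have 35116, so members had more windows per gene and the gene shares are not like for like. These are letter matches and say nothing about binding.

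Integrin chains and cytoplasmic members both held genes called lower with each hairpin. With shco2, 7 of 18 integrin chains and 7 of 17 cytoplasmic members were lower, 1 and 0 were higher, and the medians were -0.30 and -0.52. With shco4, 3 and 6 were lower, 1 and 2 were higher, and the medians were -0.11 and -0.15. Between the hairpins, 7 and 8 were higher in shco4 and 1 and 2 were lower. The shares lower were 38.9% and 41.2% with shco2 (all genes 11%), and 16.7% and 35.3% with shco4 (all genes 11.5%). The integrin share with shco4 was thus near that of all genes. Of the 6 cytoplasmic members lower with shco4, PXN and SRC lost the call with the replicate block (adjusted p = 0.0619 and 0.0632 by limma). With the mean of all probe sets of a gene, RSU1 (0.762) and SRC (0.185) lost it, as did the integrin chain ITGB5 (0.096). The shares higher were 5.56% and 0% with shco2 (13.3%), and 5.56% and 11.8% with shco4 (10.7%). Between the hairpins 38.9% and 47.1% were higher (16%), and 5.56% and 11.8% lower (19.3%). By role, the alpha chains gave 5 lower of 11 with shco2 and 2 with shco4, the beta chains 2 and 1 of 7, the actin-linking proteins 4 and 2 of 10, and the scaffolds 1 and 2 of 3. With shco4 the alpha and beta shares lower, 18.2% and 14.3%, were likewise near that of all genes. The 2 kinases gave 1 lower with each hairpin, PTK2 with shco2 and SRC with shco4. Genes were counted at 1 probe set each, and no test of a difference between these classes was made.

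A wider list of 60 other adhesion-site genes held 51 with a value. With shco2, 13 were lower and 4 higher (median -0.04), and with shco4, 6 were lower and 3 higher (median 0.00). These are 25.5% lower and 7.84% higher with shco2, and 11.8% and 5.88% with shco4, against 11% and 13.3%, and 11.5% and 10.7%, of all genes, so the share lower was above background with shco2 alone. The 4 higher with shco2 became 2 without scramble replicate 3, and 8 with the replicate block. The smallest p-values with shco2 belonged to TNS3, a tensin that binds beta tails (log2 difference -1.41 ± 0.096), ROCK2, a kinase that promotes actomyosin contraction (-0.87 ± 0.063), PTK2B, the close relative of focal adhesion kinase (-1.39 ± 0.12), and the zyxin relative LPP (-0.54 ± 0.058), with adjusted p of 0.00042 to 0.00167. With shco4 they belonged to FERMT1, encoding kindlin-1 (-1.75 ± 0.19), the LIM protein TES (-0.94 ± 0.11), the GTPase RAC1 (0.27 ± 0.033) and the caveolar coat protein CAVIN3 (-1.73 ± 0.22), with adjusted p of 0.00203 to 0.0035. With shco4, kindlin-1 was thus lower beside kindlin-2, and with shco2, PTK2B was lower beside PTK2. Both had low signal next to FERMT2 and PTK2. Mean intensities in scramble, shco2 and shco4 were 210, 248 and 62.3 for FERMT1, and 72.5, 27.7 and 90.7 for PTK2B. Between the hairpins 17 (33.3%) were higher and 11 (21.6%) lower in shco4, against 16% and 19.3% of all genes, with TNS3 (2.00), PTK2B (1.71), ROCK2 (0.79) and RAC1 (0.47) at the smallest p-values.

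In a list of integrin ligands and a few associated proteins, 17 were called lower with shco2 and 19 were not called. CD151, an integrin-associated membrane protein and not a ligand, was among the 17. Of 41 listed, 37 were measured: 45.9% were lower and 2.70% (1 gene) higher with shco2 (median -0.50), and 7 (18.9%) were lower and 2 (5.41%) higher with shco4 (median -0.06). Of all genes, 11% were lower and 13.3% higher with shco2, and 11.5% were lower and 10.7% higher with shco4. The count of 17 fell to 9 without shco2 replicate 3, and to 10 without shco2 replicate 1 or without scramble replicate 2, and the 1 higher with shco2, ICAM2, was lost when replicate 2 or 3 of scramble, or replicate 1 or 3 of shco2, was left out. The 2 higher with shco4 became 0 when replicate 1 or 2 of scramble, 1 or 3 of shco2, or 1 or 2 of shco4 was left out, and 1 without shco2 replicate 2 or shco4 replicate 3. With shco2 the leading genes were all collagen chains: COL6A3 (log2 difference -3.12 ± 0.17), COL1A2 (-2.36 ± 0.24), COL5A1 (-1.18 ± 0.14) and COL6A1 (-1.10 ± 0.14), with adjusted p of 0.000212 to 0.00284. With shco4 they were ICAM2, a ligand of leukocyte integrins (-1.84 ± 0.1), COL6A3 (-2.33 ± 0.17), the microfibril protein FBN1 (-1.90 ± 0.18) and MFGE8, a ligand of ITGAV receptors (-1.41 ± 0.2), with adjusted p of 0.000299 to 0.00548. Between the hairpins 16 genes of this list (43.2%) were higher and 5 (13.5%) lower in shco4, against 16% and 19.3% of all genes. These were led by ICAM2 (-2.33), FBN1 (-2.18), COL6A1 (1.31) and LAMA5, a laminin chain (1.20). Both lists and the members were chosen with earlier results of these data in view, so their counts are a description.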

How the data were processed

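The authors deposited 1 table of linear intensity values for 9 arrays, which they had scaled to the same 2% trimmed mean, close to 500, as the values show; the summary software is not given in the sources used here. RNA labelling used 200 ng of total RNA, per the labels' protocols. Values under 16 were set to 16 and log2 of the deposited intensity was taken. Without the 62 control probe sets, 22215 were tested with 1 mean per line in limma 3.58.1 (R 4.3.3), two-sided, with Benjamini-Hochberg adjustment over all of them and calls at an adjusted p under 0.05; the model was tested on simulated data. The prior degrees of freedom were 0.53, and 2611 probe sets lay at 16 throughout. Of those tested, 19064 have 1 gene symbol, 1043 several and 2108 none. The 3 arrays per line limit the precision.

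Members, gene lists and tests were chosen with earlier results of these data known. Values on every array are given for up to 6 called members with the largest difference each way in each comparison and for 14 members named outright; from each wider list, the 4 smallest p-values are named. Between scramble and shco4, same-numbered arrays had deviations from their line means that correlated at 0.133 to 0.235, all over 0.1, so for that comparison alone the numbers were read as pairs, and the value with the replicate number as a block (fitted over all 9 arrays) is given where it changes a call.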

Additional observations from a re-analysis of the deposited data

Results flagged for a closer look

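ILK was called lower with shco2 (log2 difference -0.27) and higher with shco4 (0.30), and the hairpins differed from each other by 0.57 ± 0.06 (SE, n = 3 per line, limma, adjusted p = 0.000749), with 3 of 3 arrays of each hairpin line on its own side of all scramble arrays. It was brought up because it was called in opposite directions against scramble and the hairpins differ by a direct test. Other members also differed between the hairpins by that test, without opposite calls against scramble. With log2(value + 16) in place of the floor neither call against scramble passed (adjusted p = 0.0772 and 0.0618). The cause was not tested.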

How the results depend on the processing

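The counts of called members stayed within 1.5 times of those given except as follows. With log2(value + 16) in place of a floor, 0 members were higher with shco2 in place of 1. With the replicate block, 2 were higher with shco2 (PARVB added, adjusted p = 0.0395), and 5 were higher with shco4 in place of 3. Leaving out single arrays gave 14 to 17 members lower and 1 higher with shco2, 7 to 9 lower and 2 to 5 higher with shco4, and 2 to 4 lower and 13 to 17 higher in shco4 than in shco2. The highest of these for shco4, 5, came without shco4 replicate 1.

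For the genes described by array, no called difference changed direction under any setting that kept the probe set. Between scramble and shco2, and between the hairpins, deviations of same-numbered arrays correlated at 0.0571 to 0.290, so not every pair was over 0.1 and the numbers were not read as pairs, although the best match was the same number in 12 of 12 cases there, a hint from the data and not from the design. There the replicate block ended the calls of ITGA5 with shco2 (adjusted p = 0.056) and of ITGAV (0.0507), ZYX (0.0813) and DOCK5 (0.0756) between the hairpins, and added TLN1 with shco2 (0.0176). TLN1 also passed with shco2 under quantile normalization (0.0462), median centring (0.0412), log2(value + 16) (0.0274), and without dim probe sets (0.0124). The choice of probe set mattered for RSU1, whose calls were lost with the mean of its probe sets (0.277 with shco2 and 0.762 with shco4), 1 of which is dim. By limma that setting also ended calls of ITGB5 (0.096) and SRC (0.185) with shco4. Between the hairpins it ended those of SRC (0.0575), ITGB1 (0.367), ITGB4 (0.0601) and ACTN1 (0.094). It added PARVA lower with shco2 (0.00505), CAV2 lower with shco4 (0.0307), and PARVA (0.00612) and ITGB5 (0.0193) higher in shco4 than in shco2. With the probe set of largest interquartile range ITGB5 lost both calls against scramble (0.0918 and 0.714). Signal over background limits the 9 dim members.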
